A study of Rattus norvegicus with 4 samples.

Results

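Immediate early genes are transcribed within minutes of a growth signal, without new protein synthesis, and most of them encode transcription factors. Their induction runs largely through Ras, RAF, MEK and ERK: ERK activates ternary complex factors that sit with serum response factor on CArG boxes, and the kinases downstream also act on CREB at CRE sequences. In fibroblasts, a growth factor pulse gives a brief burst of Fos and Egr1, while sustained ERK activity stabilises the Fos family proteins and is followed by Fosl1 (Fra-1). Described here are 8 such genes on a rat oligonucleotide array: the AP-1 subunits Fos (ENSRNOG00000008015), Fosl1 (ENSRNOG00000020552) and Jun (ENSRNOG00000026293), the related bZIP factor Atf3 (ENSRNOG00000003745), the zinc-finger factors Egr1 (ENSRNOG00000019422) and Egr2 (ENSRNOG00000000640), the orphan nuclear receptor Nr4a1 (ENSRNOG00000007607) and Myc (ENSRNOG00000004500). They were chosen by gene identity with earlier results of these data known, so their values are given as a description and carry no test. All 8 were on the array, among 20166 gene probes used. Each of the 8 was detected on every array, as were 12781 of the 20166 probes.

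RNA came from Rat-1·RasValA1 cells, a stable line of rat embryonic fibroblasts that carries HrasG12V, a form of Hras that stays active, under an IPTG-inducible promoter. In all groups the cells were in DMEM without serum, with 0.1% bovine serum albumin, for 24 h before RNA was collected. The groups were 5 mM IPTG with 3 µM ZnCl2, 5 mM IPTG alone, 3 µM ZnCl2 alone, and no addition, each measured on 1 array. A difference between conditions therefore has no replicate check. Cells lacking the inducible allele were on none of the arrays and Hras itself was not analysed here, so an effect of IPTG as a chemical and of induced HrasG12V cannot be told apart. Fibroblast markers were not analysed here, because 0 probe identifiers matched a gene name in the reference table; the names of the 8 genes come with the list that defines them. In bulk RNA, a change in the level per cell and a change in the share of cells that express a gene cannot be told apart.

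Of the 8 genes, 4 matched an entry in the RefSeq promoter table: Egr1, Egr2, Fosl1 and Nr4a1. Of these, 3 were higher on both IPTG arrays and Nr4a1 was not, and any part of promoter sequence in this was not tested. Windows around the transcription start of all 4 are shown. They are RefSeq sequences of the GRCr8 build, each with 250 bases before and 50 bases after the start. For Egr2 and Nr4a1 this start lies inside the listed gene, chr20:21050149-21055201 and chr7:134247153-134268044. Windows at the outer end of these genes were not examined. Capitals mark CArG boxes, the serum response factor motif, in the strict form CCWWWWWWGG with W for A or T. They also mark the CRE core TGACG on either strand. No 2 of the marked motifs overlap. Egr1 lies at chr18:26736828-26737127 on the + strand, Egr2 at chr20:21054392-21054691 on the - strand, Fosl1 at chr1:212183635-212183934 on the + strand and Nr4a1 at chr7:134259888-134260187 on the + strand.
Egr1: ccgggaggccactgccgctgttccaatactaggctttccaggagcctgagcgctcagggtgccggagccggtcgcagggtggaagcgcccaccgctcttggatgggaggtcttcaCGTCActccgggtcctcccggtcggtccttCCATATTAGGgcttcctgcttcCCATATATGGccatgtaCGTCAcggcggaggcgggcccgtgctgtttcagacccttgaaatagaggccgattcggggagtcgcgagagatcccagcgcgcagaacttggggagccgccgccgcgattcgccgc
Egr2: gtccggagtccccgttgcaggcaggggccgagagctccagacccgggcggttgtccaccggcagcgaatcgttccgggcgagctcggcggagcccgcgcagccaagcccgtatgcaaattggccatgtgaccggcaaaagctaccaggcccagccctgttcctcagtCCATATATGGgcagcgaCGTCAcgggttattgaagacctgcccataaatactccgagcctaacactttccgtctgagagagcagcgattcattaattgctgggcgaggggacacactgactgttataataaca
Fosl1: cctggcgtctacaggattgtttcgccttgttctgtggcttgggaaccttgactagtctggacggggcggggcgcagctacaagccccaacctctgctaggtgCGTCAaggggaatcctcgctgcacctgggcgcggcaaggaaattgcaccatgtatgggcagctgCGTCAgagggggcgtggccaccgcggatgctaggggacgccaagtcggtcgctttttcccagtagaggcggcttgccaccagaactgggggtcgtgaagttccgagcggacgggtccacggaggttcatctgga
Nr4a1: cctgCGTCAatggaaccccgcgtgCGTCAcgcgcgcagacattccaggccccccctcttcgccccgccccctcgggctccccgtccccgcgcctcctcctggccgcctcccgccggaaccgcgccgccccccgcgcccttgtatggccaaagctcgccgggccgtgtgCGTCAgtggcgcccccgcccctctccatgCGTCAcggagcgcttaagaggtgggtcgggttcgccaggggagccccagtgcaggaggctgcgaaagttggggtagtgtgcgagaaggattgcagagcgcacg
The Egr1 window held 2 CArG boxes, CCATATTAGG and CCATATATGG, and the Egr2 window held 1, again CCATATATGG. In both genes the last of these boxes began 83 bases before the start site and was followed by a CRE core beginning 66 bases before it. The Fosl1 and Nr4a1 windows held 0 CArG boxes of this strict form, and 2 and 4 CRE cores. Each held a sequence 1 base off that form, ccatgtatgg in Fosl1 and ccttgtatgg in Nr4a1. Near matches were not counted in any window. Across all 33469 RefSeq windows of this length, 1.64% held a CArG box and 21.2% the core TGACG. The AP-1 motif TGANTCA, found in 7.33% of all windows on either strand, was in 0 of these 4. A match shows that the letters are there, not that a factor binds.

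The values are of 3 kinds. The signal above blank is the spot's scanner intensity minus the mean of the array's blank spots, unscaled. Fold differences are from the normalized signal, in which 50 was added to the signal above blank before quantile normalization and log2. The added 50 makes folds smaller, most of all those of dim probes. Folds from the authors' deposited table of normalized intensities, which adds no such constant, stand beside them. The blank spots gave a mean of 66.0 to 69.8 with an SD of 0.825 to 1.01, and the dimmest member value, Egr2 with zinc alone, was 10.5 blank SDs above that mean. Repeat spots of the positive control with the wider spread had an SD of 0.161 to 0.222 on the log2 scale within an array; this covers spot error only, not differences between cultures or arrays. Scaling differed between sources: the median IPTG difference of all probes was 0.00 with zinc and 0.01 without (log2) after quantile normalization, and 0.29 and 0.34 in the authors' table.

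With IPTG and zinc, 6 of the 8 genes were at least 2-fold above zinc alone: Egr1, Fosl1, Atf3, Fos, Jun and Egr2. These 6 were also at least 2-fold above no addition in cells given IPTG alone, and Nr4a1 and Myc were not in either pair. For comparison, the share of probes at least 2-fold above the matching array without IPTG was 2.1% of 14439 in the pair with zinc in both media (the zinc pair), 3.31% of 15023 in the pair without zinc, and 1.36% of 14094 in both. In the authors' table the 6 genes also passed 2-fold in both pairs, and so did 7.24% of 12781 probes. With the local background subtracted, 4 genes passed it in the zinc pair and 3 in the pair without zinc, and with no background subtracted 6 and 4 did. The median log2 difference of the 8 genes was 1.35 in the zinc pair, where the median of all probes was 0.00, and 1.19 in the pair without zinc, where it was 0.01. No member was at least 2-fold lower with IPTG, against 2.25% of probes in the zinc pair and 3.7% in the pair without zinc.

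**Figure D1:**
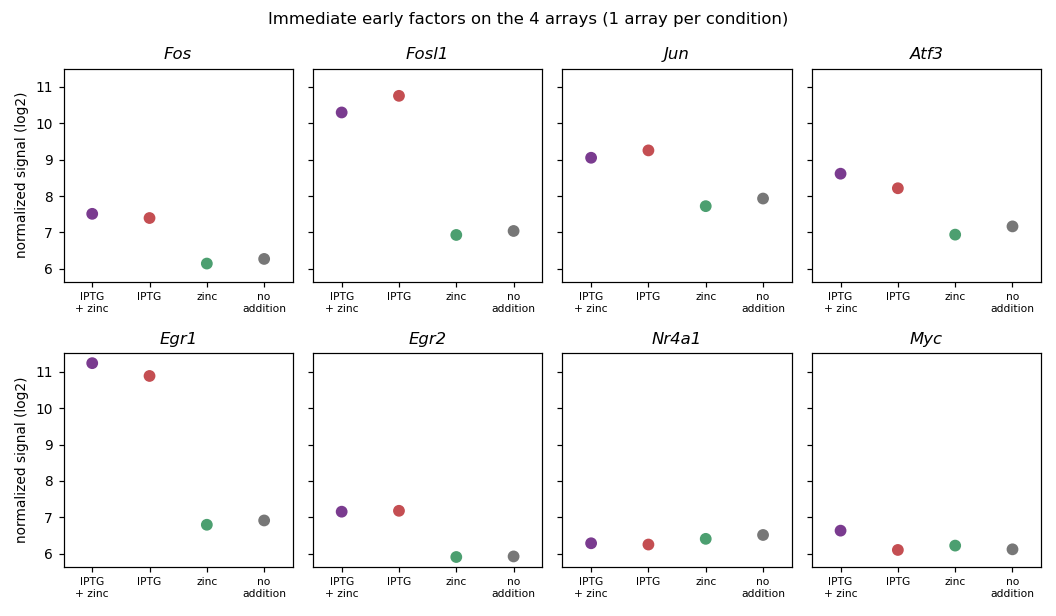
Normalized signal (log2, y axis) of the 8 genes on the 4 arrays (x axis; 1 point is 1 array, so there are no error bars). For 6 genes each IPTG array lies at least 2-fold above its matching array without IPTG, by the most for Egr1 and Fosl1. The same held for 1.36% of 14094 probes. The points of Nr4a1 and Myc span 0.26 and 0.53.

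Fosl1 encodes Fra-1, the AP-1 subunit that accumulates when ERK signalling is sustained. Its signal above blank was 1301 with IPTG and zinc and 1822 with IPTG alone, against 70.1 with zinc alone and 79.9 with no addition. Both IPTG arrays were far above both others, and the array with IPTG alone was the highest. The normalized signal was 10.3-fold higher with IPTG and zinc than with zinc (log2 difference 3.37) and 13.1-fold higher with IPTG than with no addition (3.71). These differences ranked 10 from the top of 14439 probes and 7 from the top of 15023. Folds from the authors' table were 19.6 and 27.0 for the same pairs.

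Fos, the founding AP-1 partner whose own mRNA is short-lived, was a dimmer spot. Its signal above blank was 142 with IPTG and zinc and 117 with IPTG, against 20.3 with zinc and 26.8 with no addition. Both IPTG values were above both others, but the fold depended on how dim signals were treated. On the normalized scale IPTG cells were 2.58-fold higher in the zinc pair and 2.18-fold higher in the pair without zinc, and the authors' table gave 7.37-fold and 5.15-fold. In the pair without zinc, Fos was just under 2-fold with the local background subtracted (log2 difference 0.94) and with none subtracted (0.98).

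Jun, the main dimer partner of the Fos proteins, had a signal above blank of 522 with IPTG and zinc and 590 with IPTG, against 152 with zinc and 191 with no addition. Its normalized signal was 2.51-fold higher in the zinc pair and 2.50-fold higher in the pair without zinc. The authors' table gave 3.63-fold and 3.65-fold. Atf3, a stress-responsive factor that can dimerise with Jun, had 368 with IPTG and zinc and 251 with IPTG, against 70.8 with zinc and 91.8 with no addition. It was 3.19-fold higher in the zinc pair and 2.07-fold higher in the pair without zinc, and 5.48-fold and 3.23-fold higher in the authors' table. With no background subtracted, Atf3 was just under 2-fold in the pair without zinc (log2 difference 0.97). For both genes the IPTG arrays were above the others, with the highest value on the array with IPTG alone for Jun and with IPTG and zinc for Atf3.

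The local surround was a large share of the signal for the Jun and Atf3 spots. The local background of the Jun spot was 91.2% of the spot signal with IPTG and zinc and 76.6% with IPTG, against 81.8% with zinc and 68.0% with no addition. For Atf3 it was 75.8% with IPTG and zinc and 77.0% with IPTG, against 65.6% with zinc and 61.1% with no addition. Dim members had shares as high, such as 85.2% for Egr2 with zinc and 82.0% for Myc with IPTG. With the level at blank spots taken off both surround and signal, the surround was 59.8% to 91.3% of the signal for Jun. For Atf3 this share was 38.9% to 73.1%, and for the other members at most 53.1% (Nr4a1 with zinc). With the local background subtracted, Jun was 1.13-fold higher in the zinc pair and 1.68-fold in the pair without zinc, and Atf3 1.59-fold and 1.22-fold, so neither reached 2-fold in either pair. Over all gene probes the log2 local background correlated with the log2 spot signal at r = 0.938 to 0.947 on each array, across probes that share an array and are not replicates. The part of the surround in the Jun and Atf3 differences was not tested. The Egr1 surround was 13.6% of the signal with IPTG and zinc and 16.1% with IPTG, against 63.2% with zinc and 47.9% with no addition, a smaller share than for Jun and Atf3 mainly on the IPTG arrays. The Egr1 fold with the local background subtracted was 23.7 in the zinc pair and 14.7 in the pair without zinc.

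**Figure D2:**
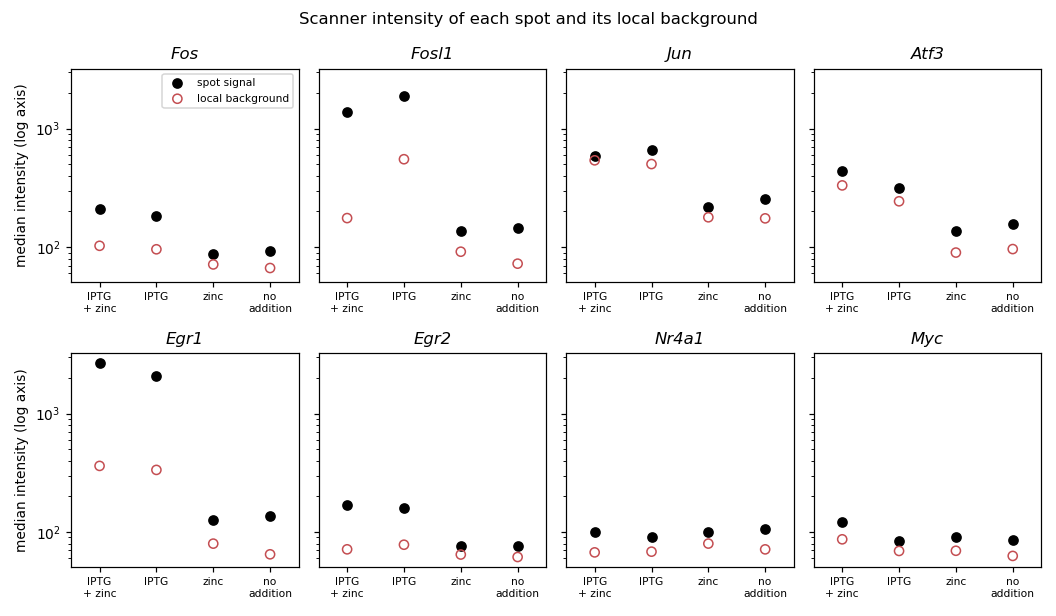
Median scanner intensity (y axis, log scale) of each gene's spot (filled) and of the local background beside it (open) on the 4 arrays (x axis). The 2 values lie close together for Jun, where the surround reaches 91.2% of the signal with IPTG and zinc. They also lie close for dim spots such as Egr2 without IPTG, and far apart for Egr1 and Fosl1 on the IPTG arrays.

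Egr1 is a zinc-finger activator that ERK is known to induce through CArG boxes. Whether the boxes printed in its window act in these cells was not tested. The Egr1 signal above blank was 2590 with IPTG and zinc and 2005 with IPTG, against 59.9 with zinc and 69.5 with no addition. Of the 8 genes it had the largest differences: 21.7-fold higher in the zinc pair (log2 difference 4.44, rank 4 from the top of 14439 probes) and 15.7-fold higher in the pair without zinc (3.97, rank 5 of 15023). The authors' table gave 45.6-fold and 34.1-fold. Under the 5 other ways of processing, the log2 difference lay between 4.25 and 5.51 in the zinc pair and between 3.79 and 5.09 in the pair without zinc.

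Egr2 (Krox20) binds nearly the same DNA sequence as Egr1 and is best known for its roles in hindbrain and Schwann cells. It was dim without IPTG: its signal above blank was 99.5 with IPTG and zinc and 93.2 with IPTG, against 9.40 with zinc and 10.5 with no addition. The array values within each IPTG state were close together and the 2 states lay apart. The normalized signal was 2.37-fold higher in the zinc pair and 2.38-fold higher in the pair without zinc. With 16 added in place of 50 these folds were 4.15 and 4.14, and the authors' table gave 11.2 and 10.5. Egr2 stayed at least 2-fold higher in both pairs under all 5 other ways of processing, as did Fosl1 and Egr1.

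Nr4a1 (Nur77), an orphan nuclear receptor and a classical serum-induced gene, was not raised with IPTG. Its signal above blank was 30.2 with IPTG and zinc and 25.5 with IPTG, against 34.1 with zinc and 40.9 with no addition. All 4 values lay within a narrow range, with both IPTG arrays below the others. The log2 difference was -0.12 in the zinc pair and -0.26 in the pair without zinc. Under the other ways of processing it ran from -0.21 to 0.20 in the zinc pair, where its direction depended on the processing, and from -0.44 to -0.13 in the pair without zinc.

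Myc, the growth-promoting factor whose mRNA and protein both turn over quickly, differed from the rest in which array stood out. Its signal above blank was 52.6 with IPTG and zinc and 18.5 with IPTG, against 24.1 with zinc and 19.1 with no addition. The array with both additions was the highest and the other 3 lay close together. The log2 difference for IPTG was 0.41 in the zinc pair and -0.02 in the pair without zinc, and the authors' table gave a 2.30-fold and a 1.14-fold higher value. On the log2 scale that is 1.20 and 0.19 for Myc, beside 0.29 and 0.34 for the median probe of that table.

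**Figure D3:**
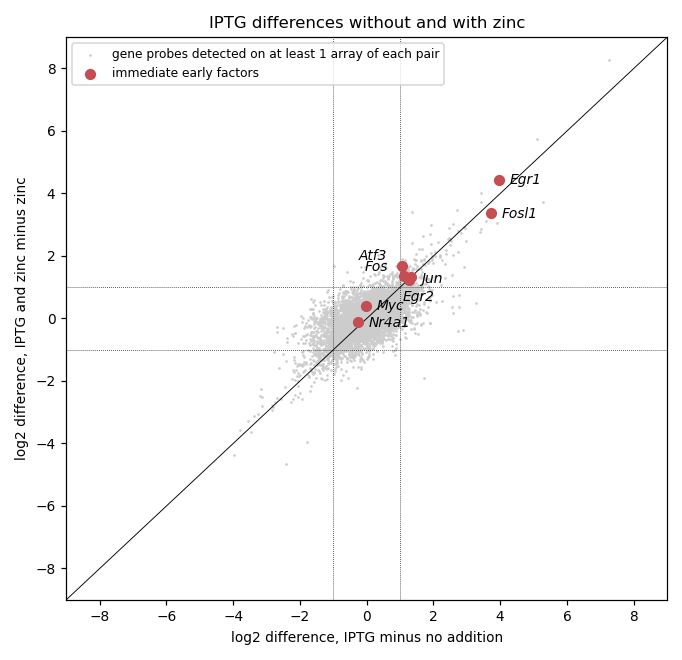
Log2 difference with IPTG minus no addition (x axis) against that with IPTG and zinc minus zinc (y axis) for 14094 gene probes (grey) and the 8 genes (red); dotted lines mark 2-fold and the diagonal marks equal differences. Egr1 and Fosl1 lie near the upper end of all probes, Fos, Jun, Egr2 and Atf3 past 2-fold on both axes, and Nr4a1 and Myc within 2-fold.

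Zinc alone moved none of the 8 genes by 2-fold. Against no addition, 7 of them were lower and Myc was higher, with log2 differences between -0.23 (Atf3) and 0.10 (Myc) and a median of -0.11. Over 14106 probes the median was 0.00, the central 95% ran from -0.32 to 0.34, and 0.0638% were at least 2-fold higher and 0.0142% at least 2-fold lower, so the 8 genes lay inside the range of most probes. In the authors' table the median probe was itself lower with zinc, by 0.20 on the log2 scale, and the members ranged from -0.53 (Fos) to 0.20 (Myc).

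Among IPTG-treated cells, the genes differed in direction between IPTG with zinc and IPTG alone. Fosl1 was lower with zinc, with a log2 difference of -0.46, and Jun was lower, at -0.20. Myc, Atf3 and Egr1 were higher, at 0.53, 0.40 and 0.35, while Fos, Nr4a1 and Egr2 were at 0.12, 0.04 and -0.02. None reached 2-fold, against 1.59% of 15051 probes at least 2-fold higher and 0.897% at least 2-fold lower, and all 8 lay inside the central 95% of probes, -0.71 to 0.82. In the authors' table Myc was 2.32-fold higher with IPTG and zinc than with IPTG, and with the local background subtracted Jun was 2.08-fold lower.

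Whether the response to IPTG had another size with zinc was measured by subtracting the log2 IPTG difference of the pair without zinc from that of the zinc pair. The result was 0.63 for Atf3, 0.47 for Egr1, 0.43 for Myc, 0.24 for Fos and 0.14 for Nr4a1. It was 0.01 for Jun and -0.01 for Egr2, and -0.35 for Fosl1. The central 95% of 14254 probes ran from -0.83 to 0.99, and all 8 genes lay within it. Atf3, Egr1, Myc, Fos and Nr4a1 kept a positive value under all 5 other ways of processing, from 0.38 to 0.76, 0.42 to 0.69, 0.34 to 1.01, 0.21 to 0.52 and 0.12 to 0.34. Jun ran from -0.57, with the local background subtracted, to 0.07, and Egr2 from -0.01 to 0.12. Fosl1 ran from -0.46 to 0.15, so its direction was not kept. The local background of its spot was 176 with IPTG and zinc and 552 with IPTG. The part of this surround in the change of direction was not tested.

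On the normalized scale, the profiles over the 4 arrays fell close together for some members. Measured as the distance between log2 values centred on each gene's mean, the nearest pair was Fos and Egr2 (0.13), followed by Jun and Egr2 (0.20). Distances were measured on this scale only, where the added constant makes folds of dim probes smaller. Unscaled ratios of signal above blank were further apart. In the zinc pair and the pair without zinc they were 10.6 and 8.86 for Egr2. For Fos they were 6.99 and 4.36, and for Jun 3.44 and 3.09. Whether these profiles stay close under other processing was not tested. Fosl1 and Egr1 were nearest to each other (0.88), and Egr1 was far from Fos (2.97). Among 12780 other probes detected on all arrays, 299 lay within 0.5 of Fos and 329 within 0.5 of Egr2, while 1 lay that near Fosl1 and 0 that near Egr1. The number was 228 for Jun, 137 for Atf3, 6019 for Myc and 8688 for Nr4a1, so profiles like the last 2 were common. With 4 arrays such distances mostly reflect the size of the IPTG difference.

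**Figure D4:**
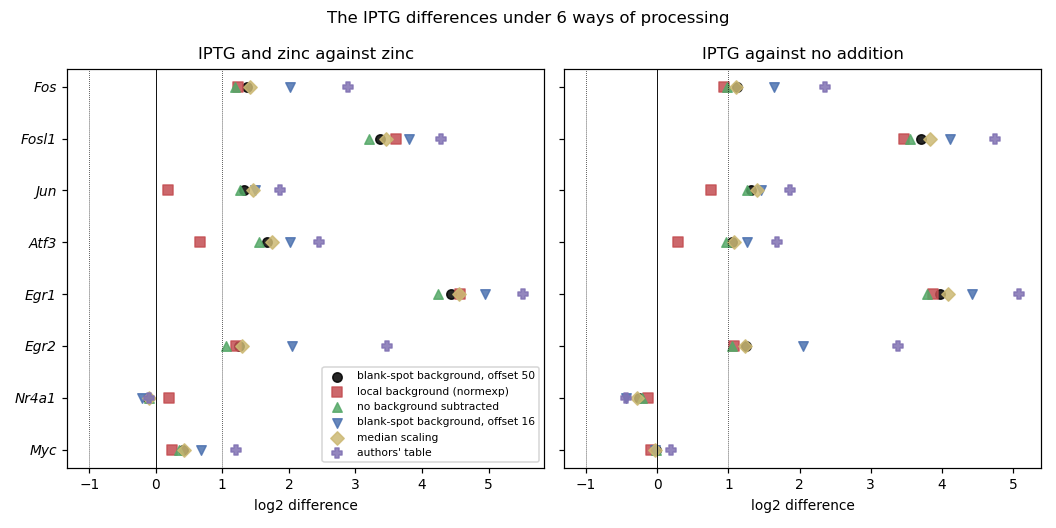
Log2 difference of each gene (rows) under 6 ways of processing (symbols), with IPTG and zinc against zinc on the left and IPTG against no addition on the right; dotted lines mark 2-fold. Fosl1, Egr1 and Egr2 lie past 2-fold in every case, Jun and Atf3 drop below it with the local background, Fos and Atf3 lie at or just under it on the right with 1 or more settings, and the authors' table gives the largest values for the 6 higher genes.

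On the array surface the 8 spots lay in 6 blocks, with Fosl1, Egr2 and Myc sharing block 20. For the gene probes next to each member, within 2 columns and 1 row, the median log2 IPTG difference lay between -0.05 and 0.05 in the zinc pair and between -0.08 and 0.15 in the pair without zinc. Single neighbours differed more: the highest was 0.71 in the zinc pair and 1.05 in the pair without zinc beside Fosl1, 0.37 and 0.87 beside Egr1, and 2.75 and 2.84 beside Myc.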

How the data were processed

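Total RNA from 4 cultures, 1 per condition, was amplified, coupled to Cy5 and hybridised to single-colour arrays, per the labels' protocols. The deposited scanner files give for each spot its median intensity and that of its local background, read at 3 gains per the file headers and unscaled between arrays. Scanner software is not given in the sources used here. Normalized intensities, with a median of 25.0 on each array, fill the authors' deposited table; the median was found from the values.

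From the spot intensity the mean of the 1344 blank spots (5 percent left out at each end) was subtracted, values were floored at 1, 50 was added, and log2 values were quantile normalized over 20166 gene probes with limma 3.58.1 in R 4.3.3; 8 probes of poor spots were left out. A probe was detected above the mean plus 2 SD of the blank spots that were kept. For a comparison, probes detected on at least 1 of its 2 arrays entered. The blank background was preferred because the local background rises with the signal. The script was tested on simulated data, with changes put only into probes brighter than any member without IPTG. That test does not cover folds of dim probes. With 1 array per condition no test was made; differences of at least 2-fold were counted, and the number of arrays limits precision.

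The 8 members and 7 further gene lists were chosen with earlier results of these data known. The rule for named genes was to name every member with its value on all arrays, plus members of those lists, marker genes and probes with like profiles that carry a symbol. Since 0 identifiers matched the reference table, those lists, the markers, the Hras and zinc-response probes and the like probes were not analysed here. Alternatives were limma's normexp on the local background, no background, an added constant of 16, median scaling, the authors' table, other filters and a 1.5-fold limit.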

Additional observations from a re-analysis of the deposited data

Results flagged for a closer look

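For 5 of the genes an effect had opposite signs in the 2 pairs of arrays that measure it; each pair is 1 array against 1 array, and the differences were not tested. The zinc difference of Atf3 was 0.40 with IPTG and -0.23 without it, 0.63 apart on the log2 scale. That of Egr1 was 0.35 with IPTG and -0.12 without, 0.47 apart, and that of Fos 0.12 and -0.13, 0.24 apart. Nr4a1 had 0.04 with IPTG and -0.11 without, 0.14 apart. The IPTG difference of Myc was 0.41 with zinc and -0.02 without, 0.43 apart. Of the 5, 3 had the same sign in both pairs of the authors' table: the zinc difference of Fos was -0.02 with IPTG and -0.53 without, that of Nr4a1 -0.05 and -0.39, and the IPTG difference of Myc 1.20 with zinc and 0.19 without. The median probe of that table was itself shifted. Its zinc difference was -0.25 with IPTG and -0.20 without, and its IPTG difference 0.29 with zinc and 0.34 without. Each of these 3 genes lay above the median probe in 1 pair and below it in the other. Atf3 and Egr1 kept opposite signs under all 5 alternatives. All 5 gaps lay inside the central 95% of 14254 probes, -0.83 to 0.99.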

How the results depend on the processing

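With 1 array per condition nothing could be left out, and no paired analysis was possible because the labels give no replicate numbers and each condition has 1 array. Of 200 recomputed member values, 159 moved by less than the positive-control repeat spread, 41 moved by more, and 0 of those at least 2-fold apart changed sign. The number of members at least 2-fold apart with IPTG against no addition was 6, but 3 with the local background subtracted (Fosl1, Egr1 and Egr2) and 4 with none subtracted. With IPTG and zinc against zinc it was 6, but 4 with the local background and 7 in the authors' table. For IPTG and zinc against IPTG it was 0, but 1 with the local background (Jun, lower) and 1 in the authors' table (Myc, higher).

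Counts over all probes at least 2-fold apart depended more on processing; the cause was not tested beyond what each setting does. With IPTG against no addition, 1054 probes became 1771 with 16 added in place of 50, 3511 in the authors' table (2487 higher, 1024 lower) and 2750 at 1.5-fold. With IPTG and zinc against zinc, 628 became 1000 with the local background, 1043 with 16 added, 2373 in the authors' table (1752 higher, 621 lower) and 1937 at 1.5-fold; median scaling gave 460 higher and 225 lower, against 303 and 325. With zinc against no addition, 11 became 221 with the local background, 18 with 16 added, 237 in the authors' table (35 higher, 202 lower) and 108 at 1.5-fold. With IPTG and zinc against IPTG, 374 became 683 with 16 added, 1832 in the authors' table (572 higher, 1260 lower) and 1385 at 1.5-fold. The signal above blank on the arrays without IPTG was below the added 50 for Fos, Egr2, Nr4a1 and Myc, so that constant makes their folds smaller. Folds of brighter members are smaller too. For Egr1 the unscaled ratio of signals above blank was 43.2 in the zinc pair and 28.9 in the pair without zinc. Its normalized folds were 21.7 and 15.7.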
